A study of Mus musculus with 6 samples.

Results

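The 10 genes described here encode proteins of the piRNA pathway that male germ cells use in the fetal and newborn testis. They were chosen by name (Ddx4, Piwil2, Piwil4, Tdrd1, Tdrd5, Tdrd9, Mael, Mov10l1, Asz1 and Gtsf1), and all 10 were found among the 22320 genes of the authors' deposited table. The measurement was mRNA sequencing of whole testes at postnatal day 1.5, in mice of a hybrid C57BL6/J and 129/SvEv background. Arid4bSCKO mice were Arid4b-/Flox with Amh-cre, that is, 1 null and 1 floxed allele of Arid4b and a Cre under the promoter of Amh, a Sertoli cell gene. The controls were Arid4b+/Flox with Amh-cre, so the floxed allele and the Cre were common to both groups. Cells that the Cre does not reach, germ cells among them, therefore had 1 working allele in Arid4bSCKO mice and both in controls. Each group consisted of 3 pools of 4 testes, and nothing in the labels says that pools came from separate litters. The p-values then measure only the spread between these pools, which may in part be technical.

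piRNAs are small RNAs bound by PIWI proteins, and they silence transposons in the germ line. In fetal prospermatogonia, the resting germ cells of the testis cords, PIWIL2 (MILI) cuts transposon transcripts and makes new piRNAs. PIWIL4 (MIWI2) carries piRNAs to the nucleus, where they direct DNA methylation of transposons. Tudor-domain proteins and helicases assemble these steps in germ granules of the cytoplasm, some of which lie close to mitochondria.

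The table holds the authors' mean per group of log2(normalized count + 1), so every level below is a mean over 3 pools and values of single pools were not analysed here. From genes read in a single library, the depth was about 17.5 M (mega) reads for an Arid4bSCKO library and 18.6 M for a control one. The targeted gene Arid4b had mean log2 levels of 8.68 in Arid4bSCKO and 10.19 in control, 35.1% of control. The 95% interval of its log2 difference was -1.82 to -1.21. The authors' deposited table gives Arid4b an FDR of 0.0535, and the moderated limma test described below an adjusted p of 2.2e-05. Whole testis was read, so fewer germ cells and less RNA per germ cell cannot be told apart.

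None of the 10 genes (0 of 10) passed either test of the difference between the groups. Differences are given as Arid4bSCKO minus control in log2 units, with the 95% interval that the authors' p-value implies. The difference was below 0 for 8 genes, from -0.70 for Tdrd9 to -0.28 for Gtsf1, and above 0 for Mov10l1 and Asz1. The median over the 10 genes was -0.39, beside -0.035 over the 19095 genes with a mean log2 level of at least 1, of which 54.2% had a difference below 0. Among the 8152 genes within the level range of the members, 52.5% had a difference below 0 and the median was -0.016. At the authors' FDR of 0.05, 0.26% of all genes in their deposited table were called, and the FDR of the 10 genes ran from 0.319 for Piwil2 to 0.864 for Mov10l1. A moderated limma test, in which each gene's variance is drawn towards that of genes of like level, called 13.8% of the 19095 genes at an adjusted p of 0.05 (6.46% lower, 7.37% higher), and 17.8% of those within the level range of the members. At an unadjusted p below 0.05, 0 of the 10 genes passed by the authors' deposited p-value, where 20.9% of all genes did. By the moderated test 3 of the 10 (Piwil2, Mael and Ddx4) had an unadjusted p below 0.05, all lower, where 29.0% of the genes tested passed and 15.2% passed as lower.

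**Figure D1:**
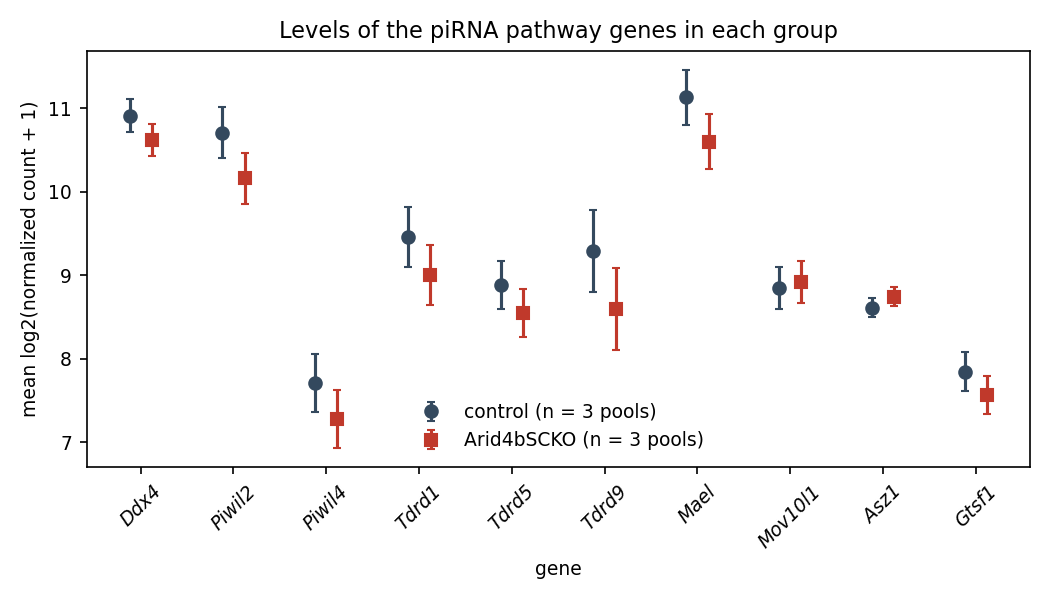
Mean log2(normalized count + 1) of each of the 10 genes in control (circles) and Arid4bSCKO (squares). Bars are the SD between pools that the authors' deposited p-value implies, 1 SD to each side and the same for both groups (n = 3 pools each). The Arid4bSCKO mean lies below the control mean in 8 genes and above it in Mov10l1 and Asz1.

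The PIWI genes both had differences below 0, at unlike levels. Piwil2 (chromosome 14, 70372480 to 70429094, minus strand, mm10) had mean log2 levels of 10.16 in Arid4bSCKO and 10.71 in control. Its difference was -0.55 (95% interval -1.23 to 0.14), or 68.4% of control, and it had the lowest p-value of the 10 genes, with an adjusted p of 0.0777 in limma (FDR 0.319, authors' deposited table). Piwil4 (chromosome 9, 14696232 to 14740733, minus strand) had means of 7.27 and 7.71. The difference for Piwil4 was -0.43 (-1.22 to 0.35), or 74.0% of control. Per kilobase of transcript, the log2 level of Piwil4 in control was 6.30, the lowest of the 10, and that of Piwil2 was 8.41.

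Ddx4 encodes the germ cell RNA helicase also called VASA, a component of germ granules. The gene (chromosome 13, 112598333 to 112652310, minus strand) had mean log2 levels of 10.62 in Arid4bSCKO and 10.91 in control. Its difference was -0.29 (95% interval -0.73 to 0.15), or 81.8% of control, with an adjusted p of 0.134 in limma.

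The 3 Tudor-domain genes all had differences below 0, with wide intervals. TDRD1 partners PIWIL2 in the granules called pi-bodies, TDRD9 is a helicase that works with PIWIL4, and TDRD5 is needed to form germ granules. Tdrd9 (chromosome 12, 111971559 to 112068854, plus strand) had mean log2 levels of 8.60 in Arid4bSCKO and 9.29 in control. Its difference of -0.70 was the largest in size of the 10 and also the least precise, with a 95% interval of -1.80 to 0.41. Tdrd1 (chromosome 19, 56826209 to 56870012, plus strand) stood at 9.0 and 9.46, a difference of -0.46 (-1.27 to 0.35), and the authors' deposited ratio of medians was -0.72. Tdrd5 (chromosome 1, 156255296 to 156303606, minus strand) stood at 8.55 and 8.89, a difference of -0.34 (-0.99 to 0.31). These intervals include 0 and, for Tdrd9 and Tdrd1, also a log2 difference of -1. Exons of the antisense gene 4930518J20Rik share 176 of the 6937 exon bases of Tdrd5, and exons of Gm10706 share 137 of the 5385 exon bases of Piwil4. The sources used here do not say whether strand was used in counting, so reads from those stretches cannot be assigned to one gene.

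Mael encodes Maelstrom, which with TDRD9 and PIWIL4 marks a second class of granule, the piP-body. The gene (chromosome 1, 166201385 to 166238744, minus strand) had mean log2 levels of 10.60 in Arid4bSCKO and 11.13 in control. Its difference was -0.53 (95% interval -1.28 to 0.22), or 69.1% of control, with an adjusted p of 0.129 in limma. The authors' deposited log2 ratio of the group medians was further from 0, at -0.88. Over the piP-body genes Piwil4, Tdrd9 and Mael the differences ran from -0.70 to -0.43, and the pi-body genes Piwil2 and Tdrd1 were at -0.55 and -0.46.

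Of the 3 remaining genes, which act in piRNA production, none differed by more than 0.28 in size. MOV10L1 is a helicase that feeds precursor transcripts into piRNA production, ASZ1 (GASZ) holds germ granules at mitochondria, and GTSF1 is a zinc finger protein that assists cutting by PIWI proteins. Mov10l1 (chromosome 15, 88982994 to 89055152, plus strand) had mean log2 levels of 8.92 in Arid4bSCKO and 8.84 in control, a difference of 0.073 (95% interval -0.50 to 0.64). The authors' deposited ratio of medians for Mov10l1 had the other sign, at -0.091, so no direction can be given. Asz1 (chromosome 6, 18050964 to 18109061, minus strand) stood at 8.74 and 8.61, a difference of 0.13 (-0.13 to 0.39), the narrowest interval of the 10. Gtsf1 (chromosome 15, 103402459 to 103430427, minus strand) stood at 7.57 and 7.85, a difference of -0.28 (-0.81 to 0.25). Across the 16645 genes tested that had a length, the rank correlation between difference and transcript length was -0.23, given as a description since genes share libraries. Gtsf1 has the shortest transcript of the 10 members, at 819 bases. With the trend over transcript length removed the difference was -0.45 for Gtsf1, 0.082 for Asz1 and 0.16 for Mov10l1, none of them called (adjusted p = 0.109, 0.689 and 0.544 in limma).

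**Figure D2:**
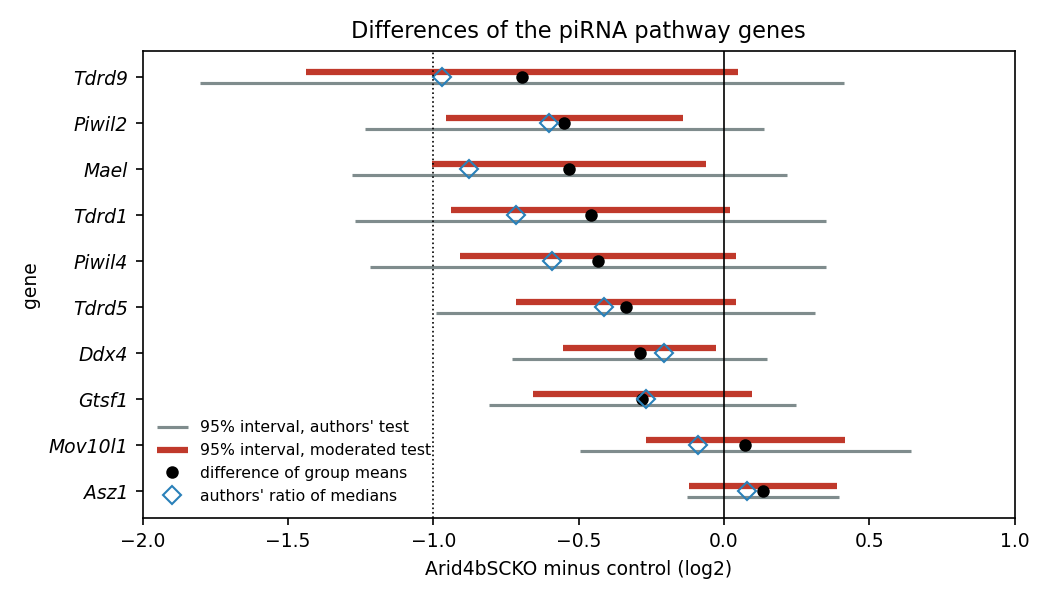
Difference of each gene in log2 units (dots), with the 95% interval from the authors' test (thin grey lines) and from the moderated test (thick red lines), n = 3 pools a group. Diamonds are the authors' deposited log2 ratios of group medians, and the dotted line marks a log2 difference of -1. All 10 grey intervals include 0, and the medians lie left of the dots for 8 genes.

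The intervals bound what these pools could show. By the authors' test all 10 intervals excluded a log2 difference of 1 or more, whereas a difference of -1 was excluded for 5 genes, Ddx4, Tdrd5, Mov10l1, Asz1 and Gtsf1. By the moderated test it was excluded for 8 genes, all but Tdrd9 (-1.44 to 0.048) and Mael (-1.003 to -0.062). The half-width of the moderated interval ran from 0.25 for Asz1 to 0.74 for Tdrd9. Differences between members were not tested, because a test would need values of single pools.

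The spread between pools was wide for most of these genes. The SD implied by the deposited p-value was 0.49 for Tdrd9, 0.36 for Tdrd1, 0.35 for Piwil4 and 0.33 for Mael. For genes within 0.5 log2 units of the same level the median SD was 0.14, 0.13, 0.20 and 0.11. The implied SD was above that median in 9 of the 10 genes, and above the 75th percentile of genes of like level in 8. Asz1, at 0.12 beside a median of 0.15, was the exception. Counting noise at these depths was smaller, from 0.038 for Mael to 0.12 for Piwil4, with about 114 reads per Arid4bSCKO library and 169 per control library for Piwil4. The moderated test draws variances towards those of genes of like level, and its intervals were narrower than those of the authors' test for all 10 members.

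**Figure D3:**
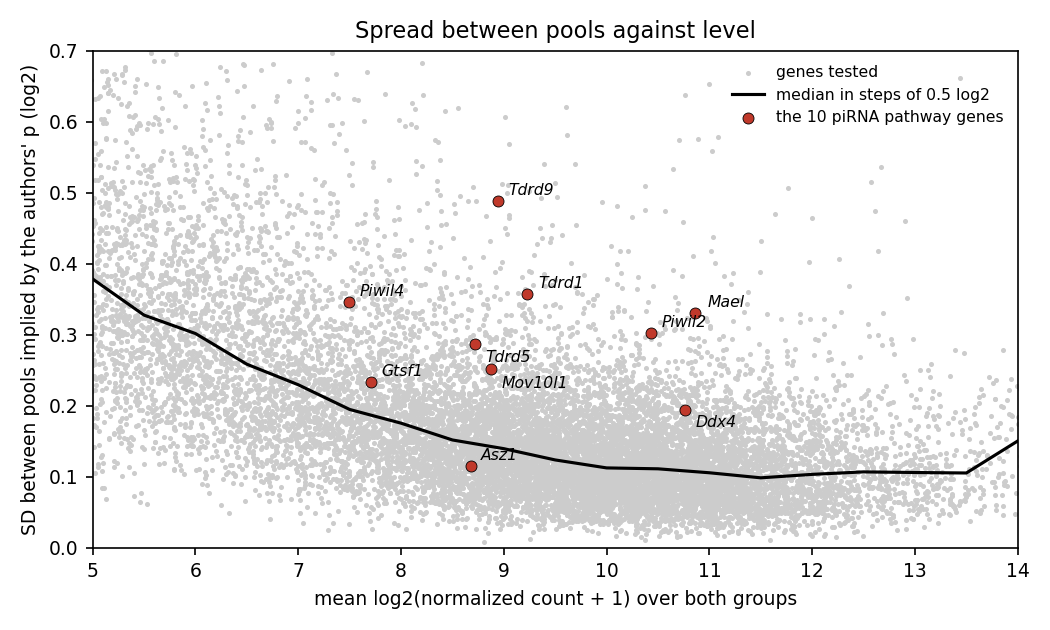
SD between pools implied by the authors' deposited p-value, in log2 units, against mean level for all genes tested (grey), with the 10 genes named. The black line is the median SD in steps of 0.5 log2, genes outside the axes are not drawn, and Asz1 alone of the 10 lies below the line.

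Levels per kilobase of transcript ordered the members from Mael to Piwil4 in both groups, with changes of rank between them. In control, Mael was highest at a log2 level per kilobase of 10.50, then Ddx4 at 9.32, Piwil2 at 8.41, Gtsf1 at 8.13 and Asz1 at 7.81. Tdrd1 (7.08), Tdrd9 (7.02), Tdrd5 (6.97) and Mov10l1 (6.82) followed, with gaps between neighbours smaller than the SD of either gene. The gap between Piwil2 and Gtsf1 was smaller than the SD of Piwil2 but not that of Gtsf1. In Arid4bSCKO Mael, Ddx4 and Piwil4 kept ranks 1, 2 and 10, and the other 7 changed rank. Mov10l1 went from rank 9 to 6 and Asz1 from 5 to 3, while Tdrd1 and Tdrd9 went from 6 and 7 to 8 and 9. In Arid4bSCKO Asz1 (7.95), Piwil2 (7.86) and Gtsf1 (7.85) lay closer together than the SD of any of them. Mov10l1 (6.89), Tdrd5 (6.63), Tdrd1 (6.62) and Tdrd9 (6.33) had gaps between neighbours near or below their SDs. The changes of rank were not tested. Piwil1 (MIWI), the PIWI gene of later meiotic germ cells, was below all 10 in control at 4.23 per kilobase.

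Promoter sequences of the members were searched for E2F and E-box motifs, and neither motif was common to all. Many germ line genes are known to be silenced in somatic cells through promoter DNA methylation and a Polycomb complex that binds E2F and E-box motifs. RefSeq promoters (GRCm38.p6, from 250 bases before to 50 after a start site) matched 9 of the 10 genes, all but Piwil2, with 12 windows. The E-box CACGTG, which reads the same on both strands, lay in 5 of the 9 genes, in 6 of 12 windows, beside 7.15% of all 32851 windows. The E2F motif TTCCCGC, searched on both strands, lay in 2 of 12 windows (Ddx4 and Tdrd5, 16.7%) beside 4.6% of all windows. The motifs do not overlap in these windows, and the Tdrd1 windows that hold the E-box overlap and share it. The median number of CpG pairs per window was 18.5 in the member windows and 7 in all windows, from 0 in one Piwil4 window to 48 in Tdrd5. Both motifs contain a CpG pair, and the shares were not compared with windows of like CpG number. A match describes letters and does not show binding. The 250 bases before the start site are printed 5′ to 3′ for 4 genes with an E-box and for Asz1, which has neither motif, with motif matches in capitals. They are Ddx4 (chr13:112652311-112652560, minus strand), Tdrd1 (chr19:56825959-56826208, plus strand), Tdrd9 (chr12:111971309-111971558, plus strand), Mov10l1 (chr15:88982744-88982993, plus strand) and Asz1 (chr6:18109062-18109311, minus strand).
Ddx4: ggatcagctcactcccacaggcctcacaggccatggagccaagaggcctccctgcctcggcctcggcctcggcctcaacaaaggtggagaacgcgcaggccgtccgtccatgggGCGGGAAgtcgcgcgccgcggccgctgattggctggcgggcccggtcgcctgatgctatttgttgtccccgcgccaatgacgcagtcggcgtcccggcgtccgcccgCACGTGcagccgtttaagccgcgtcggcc
Tdrd1: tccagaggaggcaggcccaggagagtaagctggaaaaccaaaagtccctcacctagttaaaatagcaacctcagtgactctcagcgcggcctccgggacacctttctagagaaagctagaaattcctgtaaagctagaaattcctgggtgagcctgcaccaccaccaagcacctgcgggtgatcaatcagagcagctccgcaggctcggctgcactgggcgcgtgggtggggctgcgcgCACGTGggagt
Tdrd9: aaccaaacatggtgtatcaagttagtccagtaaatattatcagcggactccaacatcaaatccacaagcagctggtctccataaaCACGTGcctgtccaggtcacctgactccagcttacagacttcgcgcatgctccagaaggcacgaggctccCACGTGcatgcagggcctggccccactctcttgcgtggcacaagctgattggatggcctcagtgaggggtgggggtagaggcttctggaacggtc
Mov10l1: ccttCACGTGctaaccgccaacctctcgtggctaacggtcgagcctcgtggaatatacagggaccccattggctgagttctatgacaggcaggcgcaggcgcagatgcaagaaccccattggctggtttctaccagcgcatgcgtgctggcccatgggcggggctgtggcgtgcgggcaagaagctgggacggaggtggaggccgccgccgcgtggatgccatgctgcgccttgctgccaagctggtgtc
Asz1: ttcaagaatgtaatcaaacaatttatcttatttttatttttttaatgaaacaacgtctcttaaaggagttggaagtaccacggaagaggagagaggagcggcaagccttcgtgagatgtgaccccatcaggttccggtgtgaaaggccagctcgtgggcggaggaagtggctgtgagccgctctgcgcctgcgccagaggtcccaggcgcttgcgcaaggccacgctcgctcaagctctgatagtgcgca
In Ddx4 the E-box starts 29 bases before the start site and the E2F match, on the opposite strand, 136 bases before it. In Tdrd1 the E-box starts 11 bases before the start site of the printed window and 77 before that of the overlapping window. Another Tdrd1 window holds neither motif. The E-box starts 246 bases before the start site in Mov10l1, and Tdrd9 has a pair, at 165 and 95. Genes with an E-box included Tdrd9, at a difference of -0.70, and Mov10l1, at 0.073.

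Other genes of the pathway came from a list of 26, of which 24 were in the table. Of these, 1 was called lower by the moderated test and 0 higher, 21 had differences below 0, and the median was -0.30. Among all genes tested, the shares were 6.46% called lower, 7.37% called higher and 54.2% below 0, with a median of -0.035. Dnmt3l, the cofactor of the DNA methyltransferases that methylate transposons under piRNA guidance, was the called gene. Its mean log2 levels were 6.88 in Arid4bSCKO and 8.16 in control, or 41.0% of control, a difference of -1.29 (95% interval -2.52 to -0.060). The adjusted p in limma was 0.0309 and the authors' deposited FDR 0.223. Without the trend on level and robust fitting the limma adjusted p was 0.122. The methyltransferase gene Dnmt3a, abundant in the whole testis, differed by -0.33 (-0.68 to 0.019, adjusted p = 0.0556 in limma), and by -0.16 with the length trend removed (adjusted p = 0.331 in limma).

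The most abundant genes of that list are also expressed outside germ cells. Hsp90aa1, a chaperone gene, was at 0.062 (95% interval -0.20 to 0.32), and centring on the trend over level gave -0.012. Wdr77 and Prmt5, whose proteins form the complex that methylates arginines of PIWI proteins, were at -0.017 (-0.17 to 0.14) and -0.15 (-0.26 to -0.036). With the length trend removed Wdr77 was at 0.057, and neither gene passed the moderated test. Mov10, the widely expressed relative of Mov10l1, was at -0.46 (-1.07 to 0.15), and Piwil1 was at -0.46 (-1.48 to 0.56). With the length trend removed, Pld6, a mitochondrial nuclease gene of piRNA production, and Fkbp6 were also called, at -0.59 and -0.41 (adjusted p = 0.0385 and 0.0482 in limma); they were singled out after their values were seen.

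**Figure D4:**
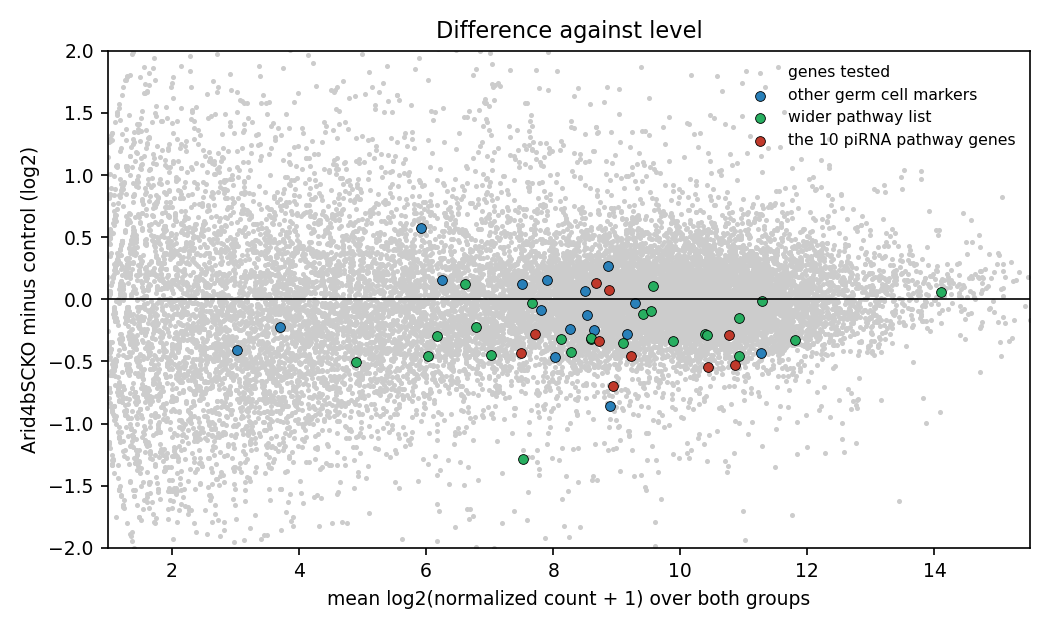
Difference between the groups against mean level, both in log2 units, for all genes tested (grey), the 10 genes (red), the wider pathway list (green) and 17 other germ cell markers (blue). Genes outside the axes are not drawn. Of the 10 genes 8 lie below 0, and Dnmt3l is the lowest green point at -1.29.

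Markers of germ, Sertoli and macrophage cells were read in the same comparison. Of 17 germ cell markers outside the pathway, 1 was called lower and 0 higher, 11 had differences below 0, and the median was -0.13. Over all genes tested, 6.46% were called lower and 7.37% higher, and 54.2% had differences below 0. Dppa4, a nuclear protein gene of early germ cells, was the called gene at -0.86 (95% interval -1.66 to -0.054, adjusted p = 0.025 in limma, and 0.123 without the trend on level and robust fitting). Dazl, an RNA-binding protein gene of germ cells, was at -0.43 (-0.97 to 0.11) while Sall4 stood at -0.028 (-0.96 to 0.91) and, once the length trend was taken out, at 0.089. Counts converted back from the mean log2 levels and summed over each list were 84.2% of control for these markers and 76.1% for the 10 piRNA genes. Such sums are weighted to abundant genes, and Dazl held 2861 of 7769 for the germ cell markers in control. Of 11 Sertoli cell markers 5 were called lower and 1 higher, with summed counts at 63.9% of control. In control, Clu and Amh held 39874 and 19510 of a sum of 97696. Clu fell by 0.46 (adjusted p = 0.0164 in limma), and Amh was at -1.62 (-3.12 to -0.12, adjusted p = 0.111 in limma). All 10 macrophage markers were called higher, with summed counts at 189% of control; the receptor genes Csf1r and Mrc1 were at 0.71 and 0.52. Without the trend on level and robust fitting, 0 Sertoli cell and 1 macrophage marker (C1qa, named after its value was seen) were called, and the limma adjusted p was 0.107 for Clu, 0.106 for Csf1r and 0.0652 for Mrc1. No marker of the 3 lists was at 0 in either group. Their part in the differences of the piRNA genes was not tested.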

How the data were processed

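Per the labels' protocols, strand-preserving mRNA libraries were read from both ends. The submitters' processing notes list STAR 2.4 and mm10; how reads were counted (tool, strand, annotation) and normalized is not given in the sources used here. Per the file headers and field descriptions, the deposited values are means per group of log2 normalized counts, a log2 ratio of group medians, a p-value assuming equal variance, and its Benjamini-Hochberg FDR. Levels of 0 for unread genes fit a pseudocount of 1. Table starts count from 0 and were moved by 1 base.

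Standard errors follow from the difference of means and the deposited p-value, on 4 residual degrees of freedom. The implied variances of 19095 genes with a mean log2 level of at least 1 were moderated with limma 3.58.1 (squeezeVar, trend on level, robust) in R 4.3.3, with Benjamini-Hochberg adjustment over those genes. The moderated test was tried on simulated data for this comparison (19095 genes, 200 changed). The simulated libraries were independent normal draws, with variances scattered around a trend on level, the form that the test assumes. In the real data 13.8% of the genes tested were called. The test recovered 82.0% of 100 changes of 1 log2 and 98.0% of 100 changes of 2 log2 in the simulation. False calls made up 4.76% of the simulated calls. These shares do not measure the error of calls in the real data. Neither share was tested for the 10 members alone. Their implied SD was above the median of genes of like level in 9 of the 10. Depth, as reads counted on genes, was the sum of group means converted back from log2, divided by the worth of 1 read. That worth was 1.28 to 1.45 normalized counts in Arid4bSCKO and 1.20 to 1.25 in control. A mean of log2 values converted back does not exceed the mean count, so such sums tend to be low. Transcript lengths came from GENCODE M21 by RefSeq accession, for 81.6% of genes and all 10 members.

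The members and lists were chosen with earlier results of these data known. Named were all members; from the wider list the called genes, the 5 of highest level and the 3 of largest difference at a mean log2 level of at least 5; and from the other lists the 2 of highest level, with called germ cell markers. Alternatives varied the filter, the moderation, the centring, the length trend and the use of medians.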

Additional observations from a re-analysis of the deposited data

How the results depend on the processing

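No member passed (0 of 10) under any of the 5 alternatives to the moderated test or when the authors' p-values were readjusted over genes past a minimum (mean log2 level of 1, or 5 normalized counts). The lowest adjusted p any member reached in limma was 0.0706, for Piwil2 with the minimum of 5 normalized counts. The number of wider pathway genes called, 1, became 0 without the trend on level and robust fitting, where 237 genes of the table were called in place of 2641, and 3 with the length trend removed. The median of the members ran from -0.50 with the authors' ratios of medians to -0.36 with centring on level. Signs turned, for genes called in no setting, in Mov10l1 (-0.091 by medians), Hsp90aa1 (-0.012, centred on level), and with the length trend removed in Wdr77 (0.057), Tnrc6a (0.018) and Sall4 (0.089). The causes were not tested. No paired analysis was possible because the table holds group means only, and no replicate could be left out for the same reason. Piwil4 and Gtsf1 had the fewest reads of the members, about 114 to 187 per library. Their counting SDs were 0.12 and 0.11, beside implied SDs between pools of 0.35 and 0.23.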

Other observations

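Proteins of the general RNA decay granule, the P-body, are known to lie beside PIWIL4, TDRD9 and Maelstrom in the piP-body, and their genes are expressed in most cells. Of 6 such genes all had differences below 0, and 2 were called lower by the moderated limma test, Ddx6 and Dcp2, the second singled out after its value was seen. Ddx6, a helicase that represses translation, had mean log2 levels of 12.37 in Arid4bSCKO and 12.73 in control, a difference of -0.35 (95% interval -0.59 to -0.12, adjusted p = 0.0224 in limma). Dcp2, the decapping enzyme gene, stood at 10.45 and 10.82, a difference of -0.38 (-0.51 to -0.25, adjusted p = 0.0112 in limma). Neither was called with the trend over transcript length removed (differences of -0.23 and -0.22, adjusted p = 0.119 and 0.0923 in limma) or without the trend on level and robust fitting (0.115 and 0.0779). Tnrc6a, which encodes the scaffold GW182, was at -0.13 (-0.34 to 0.075). Over all genes tested, 13.8% were called, and 54.2% had differences below 0. As shares of all genes tested, 6.46% were called lower and 7.37% higher.

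The authors' deposited ratio of medians was lower than the difference of means in 8 of the 10 piRNA genes, and in 49.6% of the 19095 genes tested. The gap was widest for Mael, at -0.34, then Tdrd9 at -0.27 and Tdrd1 at -0.26. Ddx4 and Gtsf1 went the other way, at 0.082 and 0.011. The 10 genes were read in the same 6 pools, so these gaps are not independent of each other.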
